A study of Lens culinaris with 20 samples.

Results

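miR397 and miR408 are the copper families of plant microRNAs described here in lentil (Lens culinaris), a grain legume. The members were every entry of the deposited table of expressed miRNAs that carried the name of a known miR397 or miR408, with entries of the same mature sequence counted as 1 feature. They came to 6 features of 1464 in all, or 9 entries of 1642, with 1 feature of miR397 and 5 of miR408. Small RNA had been sequenced to profile miRNAs across lentil organs, with 2 libraries of flowers and 3 each of flower buds, young pods, stem, mature leaves, shoots and roots. The labels give the tissue of each of the 20 libraries and pooled material as the RNA source, but no variety, age or treatment. Whether replicate libraries stand for separate plants is not stated, so the p-values below cover the spread among libraries, and part of that spread may be technical. The table holds miRNAs and no messenger RNAs, so the tissue labels could not be set against marker genes.

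Plant miRNAs are cut from the stem of a folded precursor, which can yield a mature strand from its 5′ arm (5p) and one from its 3′ arm (3p), and the strand that is loaded into an Argonaute protein guides the cleavage of matching messenger RNAs. In Arabidopsis, miR397 targets laccases, copper enzymes that polymerise lignin in cell walls, and miR408 targets plantacyanin, a small blue copper protein, together with other laccases. Both families are induced by the transcription factor SPL7 when copper is scarce, and their action spares copper for plastocyanin and other essential copper proteins.

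The mature sequences of the members that carried nearly all of the reads are shown first, with the seed (bases 2 to 8) in capitals and next to the closest known form that the table names.
ath-miR397a in lentil: tCATTGAGtgcagcgttgatg
ath-miR408-3p_L-1R+2 in lentil: tGCACTGCctcttccctggctc
ath-miR408-3p as known in Arabidopsis: aTGCACTGcctcttccctggc
The lentil miR397 of 21 nt was identical to the Arabidopsis miR397a. The lentil miR408-3p of 22 nt lacked the first base of the Arabidopsis form and carried 2 more bases at its 3′ end, with 0 mismatches over the 20 shared bases. Its seed was therefore moved by 1 base, from TGCACTG to GCACTGC, and its first base was T in place of A. In Arabidopsis the first base of a small RNA takes part in which Argonaute protein loads it.

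The other 4 members are rare forms of miR408, shown here because they define the second arm, the opposite strand and the 3′ ends of the family.
gma-MIR408a-p5_1ss10AT, the 5p arm: gGAACAGGctgagcatggatg
lus-miR408a_R+2, a longer 3p form: aTGCACTGcctcttccctggcct
bra-miR408-5p_L+1R+2_1ss3GA, named 5p: aGAGAGCCagggaagaggcagtgc
mes-MIR408-p5_1ss2GT, named 5p: aTCATGGGtggaactatt
The 5 miR408 features held 4 different seeds besides that of the main form, and none of the 6 members shared the seed of another. The 23 nt form had the first base and the seed of the Arabidopsis form. The 5p form differed from the soybean entry after which it is named by A10T, the 24 nt form from its Brassica rapa entry by G3A after 1 added base at the 5′ end, and the 18 nt form from its cassava entry by G2T, all counted from the 5′ end of the lentil sequence.

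The listed precursors place these forms on their hairpins, with the mature strands in capitals.
miR397 precursor: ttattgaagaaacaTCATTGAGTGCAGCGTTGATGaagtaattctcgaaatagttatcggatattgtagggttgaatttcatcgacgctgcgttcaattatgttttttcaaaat
miR408 precursor, 5p then 3p strand: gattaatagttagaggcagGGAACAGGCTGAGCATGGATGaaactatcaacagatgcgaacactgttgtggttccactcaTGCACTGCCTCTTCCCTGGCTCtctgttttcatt
The miR397 precursor of 114 nt held the mature strand at positions 15 to 35 of its 5′ arm, and its predicted fold had a minimum free energy of -48.4 kcal/mol. Of the 21 bases of the mature strand, 20 were paired in that fold. No entry for a 3p strand of this precursor was listed among the 1642 entries.

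miR408 had 2 listed precursors of 114 nt that differed by G58A between the 2 strands, each with a predicted fold of -51.0 kcal/mol. On both, the 5p strand lay at positions 20 to 40 and the 3p strand at positions 81 to 102. In the predicted fold 12 base pairs joined the 2 listed strands, which left 7 and 6 bases overhanging at the 3′ ends of the 3p and the 5p strand. Because the mature strands lie outside the base that differs, reads of the 3p strand could not be given to one precursor, and the table gave each of its 2 entries the same count in every library. The levels below are of 1 entry, and the sum of both holds 2 times as many reads.

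The 24 nt form named miR408-5p was not the 5p strand of this hairpin. Its 2 listed precursors of 98 nt were the exact reverse complements of positions 9 to 106 of the 2 miR408 precursors, and the read itself was the reverse complement of positions 82 to 105, which overlaps the 3p strand by 21 nt. The 18 nt form had a listed precursor of 55 nt that did not hold the miR408 3p sequence and folded at -16.4 kcal/mol. The 23 nt form had no listed lentil precursor. It lay unchanged in the flax precursor that the table names, and laid on the lentil precursor from position 80 to 102 it differed by T22C and C23T, counted from its own 5′ end.

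**Figure D1:**
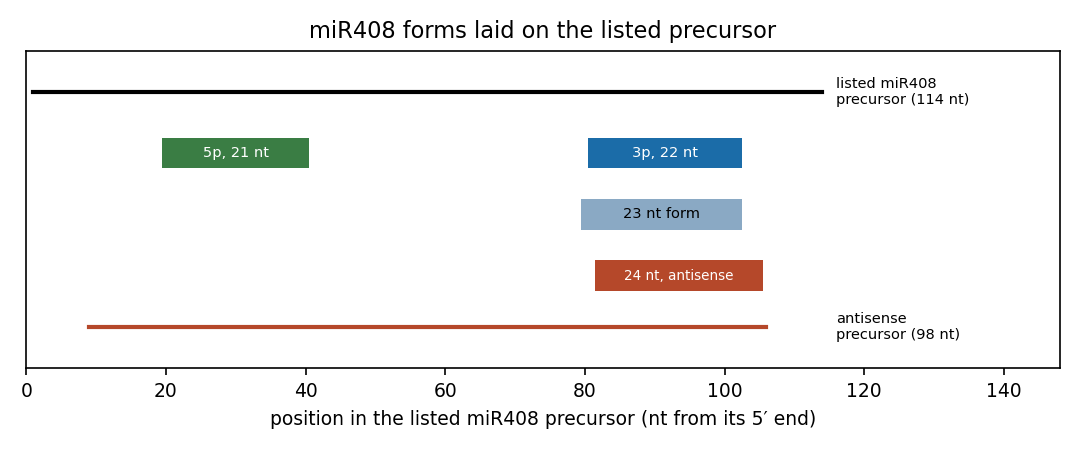
Position of 4 miR408 forms on the listed lentil precursor, in nucleotides from its 5′ end. The 5p strand (positions 20 to 40) and the 3p strand (81 to 102) lie on opposite arms, the 23 nt form starts 1 base before the 3p strand, and the 24 nt form and its 98 nt precursor are drawn in the sense coordinates that they complement.

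Reads assigned to mature miRNAs, each sequence counted once, came to 72825 to 997065 per library, and the factors of TMM, a scaling between libraries, ran from 0.508 in mature leaves 1 to 1.71 in roots 2. Levels are CPM, the usual scaling of reads to a common library size, here the size after TMM. The table lists hardly any value from 1 to 4 reads, so a listed 0 is read as fewer than about 5 reads. Tests were fitted with edgeR (quasi-likelihood F-test) on the 20 libraries together and adjusted by Benjamini-Hochberg over the 323 features that passed a filter on low counts. A call needs an adjusted p under 0.05 and, where a single fold is tested, a log2 fold change of 1 or more in size. Of the 6 members, ath-miR397a and the main miR408-3p form passed that filter and the 4 rare forms did not.

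miR408-3p was listed in all 20 libraries and was highest in flower buds and flowers and lowest in young pods. In flower buds it was at 1169, 2045 and 2065 CPM, and in flowers at 1158 and 1386 CPM. In shoots it was at 672, 792 and 962 CPM, and in mature leaves at 467, 793 and 963 CPM. The 5 libraries of flower buds and flowers all lay above the 15 libraries of the other tissues.

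In roots miR408-3p was at 668, 454 and 516 CPM, and in stem at 102, 719 and 350 CPM. In young pods it was at 303, 235 and 285 CPM. The stem libraries spanned those of roots and young pods, with stem 1 the lowest of the 20 libraries. In a bulk library, fewer cells that make a miRNA and less of it per cell cannot be told apart.

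As tissue means the order was flower buds (1760 ± 512 CPM, SD, n = 3), flowers (1272 ± 161 CPM, n = 2), shoots (809 ± 146 CPM, n = 3), mature leaves (741 ± 252 CPM, n = 3), roots (546 ± 110 CPM, n = 3), stem (390 ± 310 CPM, n = 3) and young pods (274 ± 35.0 CPM, n = 3). The stem mean was 226 CPM without stem 2. From the highest to the lowest tissue the ratio of means was 6.42. With the reads of both entries added up, the means were 3183 CPM in flower buds and 561 CPM in young pods.

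**Figure D2:**
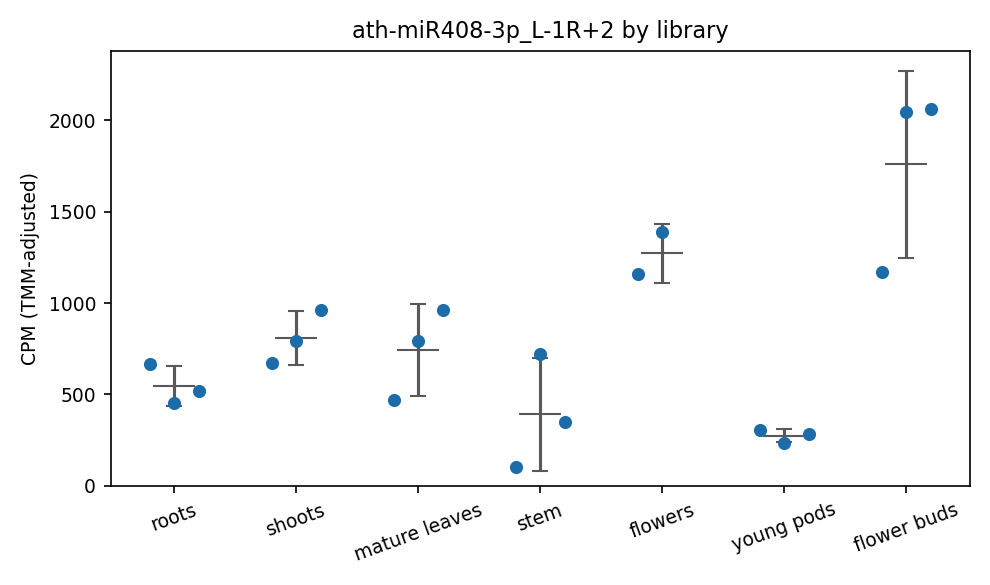
Level of ath-miR408-3p_L-1R+2 (1 of its 2 equal entries) in CPM after TMM scaling for each of the 20 libraries (points), with the mean (horizontal bar) and SD (vertical bar) per tissue. All 5 libraries of flowers and flower buds lie at 1158 CPM or above, and the 15 others at 963 CPM or below.

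miR408-3p differed over the 7 tissues (edgeR quasi-likelihood F-test, adjusted p = 0.00238), as did miR397 (adjusted p = 0.000979). For miR397 the test took a listed 0 as no reads, and the feature had passed the filter on low counts through its root libraries. Of all features tested, 74.3% passed the test over the 7 tissues, so a difference among these tissues was the common case. Against the mean of the other 6 tissues, taken over log levels so that tissues with few reads weigh as much as those with many, miR408-3p was higher in flower buds by 1.56 ± 0.35 on the log2 scale (SE, 2.95-fold, adjusted p = 0.00240), in a comparison where 17.6% of features were called higher. This call held under all 11 other settings and with each of the 20 libraries left out.

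In young pods miR408-3p was lower than the mean of the other 6 by a log2 fold change of -1.57 ± 0.45 (2.96-fold lower, adjusted p = 0.0143), where 4.64% of features were called lower. The call was lost without young pods 1 (adjusted p = 0.0575), without young pods 2 (adjusted p = 0.0956) and without the filter on low counts (adjusted p = 0.0960).

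The other 5 tissues did not pass. The log2 fold change was 1.02 ± 0.42 in flowers (adjusted p = 0.106, 13.0% of features called higher) and -0.96 ± 0.42 in stem (adjusted p = 0.0927, 30.3% called in either direction). Both lay near the threshold: flowers were called under 6 of the 11 other settings and stem under 5. In roots it was -0.41 ± 0.41 (approximate 95% interval -1.21 to 0.39, adjusted p = 0.459), but with the authors' factors as the scaling roots were called lower (-1.20, adjusted p = 0.0273), a setting that moved the median of all features in roots by -0.85. It was 0.26 ± 0.39 in shoots (adjusted p = 0.964, 14.2% called in either direction) and 0.10 ± 0.39 in mature leaves (adjusted p = 0.9998, 31.0% called in either direction). With intervals of -0.50 to 1.01 in shoots and -0.67 to 0.87 in mature leaves, a change of up to about the size of the threshold in either tissue was not resolved. The sign in mature leaves turned negative under 3 of the 11 other settings and with 14 of the 20 libraries left out, that in shoots under 1 setting and with 3 libraries left out, and that in roots turned positive with library size as the only scaling (0.22).

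**Figure D3:**
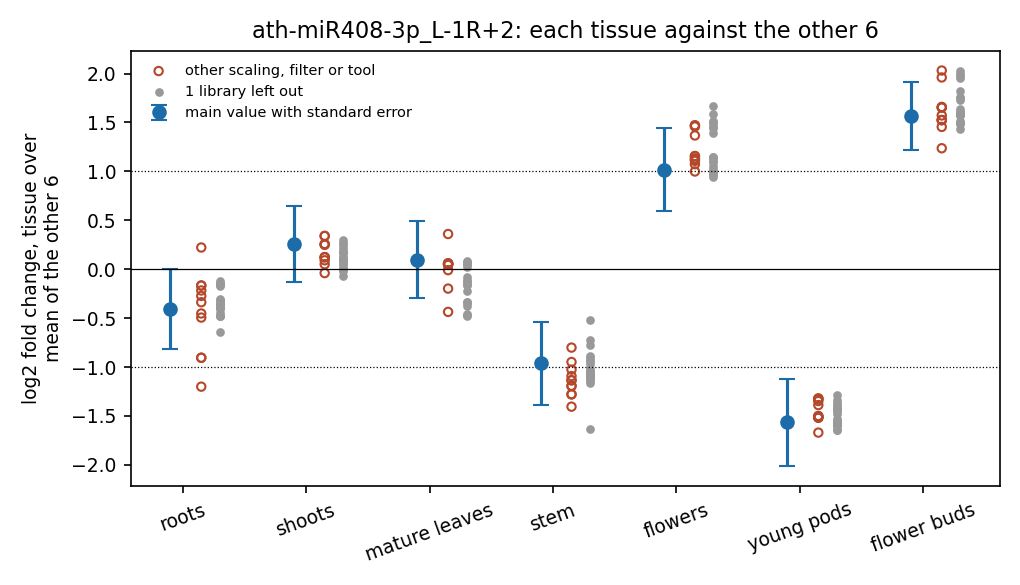
Log2 fold change of ath-miR408-3p_L-1R+2 in each tissue over the mean of the other 6 tissues: the value reported with its standard error (filled points with bars), the value under each other scaling, filter or tool (open circles) and with 1 library left out (small grey points). Dotted lines mark the threshold of 1 in either direction. Flower buds stay above 1 and young pods below -1 throughout, while roots, shoots and mature leaves lie on both sides of 0.

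Between pairs of tissues, 7 of 21 comparisons of miR408-3p were called, against 26.9% over all features and pairs. The libraries of 14 of the 21 pairs did not overlap. The share of such pairs over all features was not computed, so this count is a description only. Neighbours in the order of the means were not called in any of the 6 steps, which does not show them to be equal. From flower buds down to flowers the log2 difference was 0.47 ± 0.57, from flowers to shoots 0.65 ± 0.56, from shoots to mature leaves 0.13 ± 0.51, from mature leaves to roots 0.43 ± 0.52, from roots to stem 0.48 ± 0.51 and from stem to young pods 0.52 ± 0.51.

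Flower buds were above 3 tissues. The log2 fold change of young pods over flower buds was -2.68 ± 0.54 (6.41-fold lower, adjusted p = 0.00294, 15.8% of features called), that of stem over flower buds -2.17 ± 0.53 (4.49-fold lower, adjusted p = 0.00483, 30.0% called) and that of roots over flower buds -1.69 ± 0.52 (3.22-fold lower, adjusted p = 0.0135, 48.0% called). The first and the second of these held under all other settings and left-out libraries. The third was lost with library size as the only scaling (-0.87, adjusted p = 0.130) and without roots 3 (adjusted p = 0.0913).

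Flowers were above young pods by 2.21 ± 0.57 on the log2 scale (4.64-fold, adjusted p = 0.0287), where 8.36% of features were called. This call was lost without flowers 2 (adjusted p = 0.0591), young pods 1 (adjusted p = 0.0782) or young pods 2 (adjusted p = 0.0860). Stem was below flowers by -1.70 ± 0.56 (adjusted p = 0.0390, 21.4% of features called), a call lost without stem 1 (adjusted p = 0.0747), stem 3 (adjusted p = 0.0835) or flowers 2 (adjusted p = 0.0992) and with 1 feature kept per set of equal counts (adjusted p = 0.0502).

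Young pods were also below shoots, by 1.56 ± 0.52 for shoots over young pods (adjusted p = 0.0360, 23.5% of features called), and below mature leaves, by 1.43 ± 0.53 for mature leaves over young pods (adjusted p = 0.0477, 28.8% called). The first call was lost under 7 of the 11 other settings and with 12 of the 20 libraries left out, and the second under 8 and with 19.

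The 5p strand of miR408 was listed in flowers 2 with 5 reads and in flower buds 2 with 7 reads, both entries added up. The 3p strand had 3444 and 1804 reads in the same libraries. The 5p share of the reads of both strands was thus 0.145% (95% Clopper-Pearson interval 0.0471 to 0.338%) in flowers 2 and 0.387% (0.156 to 0.795%) in flower buds 2. The intervals overlapped. In flower buds 3, with 1723 reads of the 3p strand, the 5p strand was under 5 reads, which allows a share of up to 0.289%.

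In the other 17 libraries the limit on the 5p share ran from 0.705% to 9.26%. Flowers and flower buds together held 68.7% of all 3p reads, and flowers 2 and flower buds 2 ranked first and second of the 20 libraries in them. A tissue difference in the use of the 2 arms could not be asked at this depth. These intervals and limits cover counting error only.

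The remaining rare forms followed a like distribution, except for the 18 nt form. The 23 nt 3p form had 6.5 reads in flowers 2 and 8.0 in flower buds 2, and was under 5 reads elsewhere. The 24 nt antisense form had 7 reads in flowers 2 and the 18 nt form 5 reads in roots 1, and both were under 5 reads in the other 19 libraries. All 4 rare forms together with the main form made up the family, of whose reads the main form held 99.7%.

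miR397, the laccase regulator, was listed in the 8 libraries of roots, flowers and flower buds. In roots ath-miR397a was at 107, 48.6 and 80.6 CPM, from 14, 6 and 15 reads. In flower buds it was at 23.8, 65.8 and 43.1 CPM, from 5, 29 and 18 reads. In flowers it was at 17.7 and 15.3 CPM, from 5 and 19 reads. Roots and flower buds overlapped, and both flower libraries lay below all of them.

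In the 12 libraries of shoots, mature leaves, stem and young pods miR397 was listed at 0. There 5 reads stood for 16.8 to 44.2 CPM in shoots, 18.5 to 61.0 CPM in mature leaves, 8.62 to 20.5 CPM in stem and 12.7 to 26.4 CPM in young pods. The 3 root libraries lay above these limits in shoots, stem and young pods, and roots 2 lay within those of mature leaves. The mean level in flowers (16.5 ± 1.71 CPM, n = 2) lay under the limit in every shoot and mature leaf library, so no difference between flowers and these tissues was detectable at this depth.

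**Figure D4:**
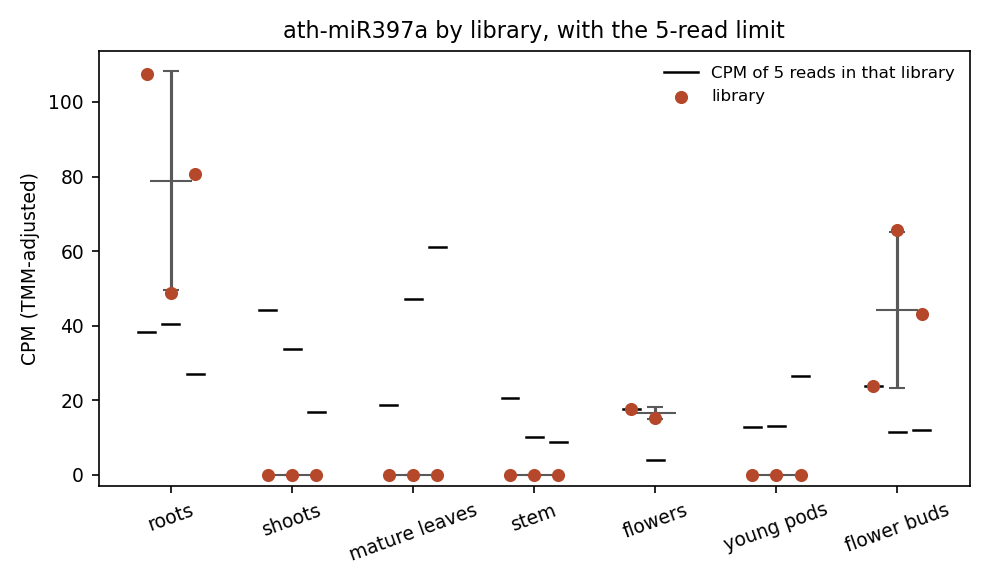
Level of ath-miR397a in CPM after TMM scaling for each of the 20 libraries (points), with the mean and SD per tissue (grey bars) and, as a short black line, the CPM that 5 reads amount to in that library. Roots lie at 48.6 to 107 CPM and flower buds at 23.8 to 65.8 CPM, and the 4 tissues listed at 0 have limits of up to 61.0 CPM.

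Taken against 5 reads in each library, the root mean of 78.9 ± 29.4 CPM was at least 6.02-fold higher than stem, 4.54-fold higher than young pods, 2.50-fold higher than shoots and 1.87-fold higher than mature leaves. The flower bud mean of 44.2 ± 21.02 CPM was at least 3.37-fold higher than stem, 2.54-fold higher than young pods, 1.40-fold higher than shoots and 1.05-fold higher than mature leaves. Without flower buds 2 the flower bud mean was 33.4 CPM, under the mean limit of 42.2 CPM in mature leaves, so that no bound over mature leaves was left. The lowest flower bud library, at 23.8 CPM, lay within the limits of shoots, mature leaves and young pods. The flower mean was at least 1.26-fold higher than stem, but both flower libraries, at 17.7 and 15.3 CPM, lay under the limit of 20.5 CPM in stem 1.

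The tests took a listed 0 as no reads. On that reading miR397 was called higher than the mean of the other 6 in roots (adjusted p = 0.000111, 32.2% of features called higher) and flower buds (adjusted p = 0.00132, 17.6% called higher). This feature passed the filter on low counts through its root libraries. Its test over the 7 tissues and its root calls, here and between pairs, are therefore not independent of that filter. The test over the 7 tissues and the call in roots against the other 6 were kept under all 11 other settings, among them no filter. The plain mean CPM of roots and of flower buds also lay above that of their other 6 tissues with each listed 0 set to 5 reads, at 27.5 and 33.3 CPM. As a difference of log2 mean CPM with these 0s at 5 reads, roots were at 1.68. Flower buds were at 0.71 on that measure, under the threshold of 1. Flowers passed the same test (adjusted p = 0.0269, 13.0% called higher) but were not above the other tissues in plain means. Their 16.5 CPM compared with 20.5 CPM as the mean of the other 6 with every 0 taken as no reads, and with 37.9 CPM at 5 reads, so that the call rested on how a 0 enters a mean of logs. It was also lost without flowers 1 (adjusted p = 0.0796) or flowers 2 (adjusted p = 0.117). No fitted fold is given, because it depends on how a 0 is filled.

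Of the 21 pairs, 9 were called for miR397, of which 4 were root pairs, the pairs in which most features were called. Roots were above stem (adjusted p = 0.00232, 48.0% of all features called), young pods (adjusted p = 0.00301, 48.6% called), shoots (adjusted p = 0.00619, 37.8% called) and mature leaves (adjusted p = 0.00627, 49.5% called). The last 2 of these calls were lost without the filter on low counts (adjusted p = 0.0656 and 0.0572).

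On the same reading of a 0, flower buds were called above stem (adjusted p = 0.00548, 30.0% called), mature leaves (adjusted p = 0.0156, 29.1% called), young pods (adjusted p = 0.0165, 15.8% called) and shoots (adjusted p = 0.0179, 22.0% called), and flowers were called above stem (adjusted p = 0.0268, 21.4% called). Of these 5 calls, that of flower buds over stem alone held without the filter. Flower buds over shoots was also lost without shoots 2 (adjusted p = 0.0583), shoots 3 (adjusted p = 0.0699) or flowers 2 (adjusted p = 0.0522), and flower buds over young pods without young pods 1 (adjusted p = 0.0522) or young pods 2 (adjusted p = 0.0675). Flowers over stem was lost without either flower library, without stem 2 (adjusted p = 0.0516) or without stem 3 (adjusted p = 0.0846). With each listed 0 set to 5 reads, 3 of the bounds lay under a log2 fold change of 1. These were flower buds over shoots (1.40-fold) and over mature leaves (1.05-fold), and flowers over stem (1.26-fold). Roots over flowers (log2 fold change 2.24 ± 1.36, adjusted p = 0.207) and roots over flower buds (0.82 ± 1.12, adjusted p = 0.568) did not pass.

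The families were set side by side as read counts within a library, which needs no scaling between libraries. With both entries of miR408-3p added up, miR397 held, of the reads of miR397 and miR408-3p together, 7.45% (95% Clopper-Pearson interval 4.13 to 12.2%), 5.08% (1.89 to 10.7%) and 7.25% (4.11 to 11.7%) in the root libraries. It held 1.01%, 1.58% and 1.03% in flower buds and 0.760% and 0.549% in flowers. With 1 entry of miR408-3p, as for the levels above, the root shares were 13.9%, 9.68% and 13.5%, against 1.99%, 3.11% and 2.05% in flower buds and 1.51% and 1.09% in flowers. Either way every root share lay above every share of flower buds and flowers. In the libraries of shoots, mature leaves, stem and young pods, where miR397 was listed at 0, 5 reads would allow 0.705% to 9.26%. These limits are with both entries added up. The highest, in stem 1, lay above every root share, so roots were not shown to hold the highest share of all tissues. The intervals cover counting error only and were not used to compare tissues. miR408-3p had more reads than miR397 in all 20 libraries.

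As sums over the features of a family, miR397 (adjusted p = 0.000117) and miR408 (adjusted p = 0.000567) both differed over the 7 tissues by edgeR's quasi-likelihood F-test over 54 families, of which 85.2% passed. The miR397 sum holds its 1 feature, and the main form held 99.7% of the miR408 reads. The sums thus repeat nearly the same counts and are no separate support for the calls above. All single-tissue and pair calls of the 2 tested features were also called for the family sums, and 4 further comparisons passed. These 4 come from a fit and adjustment over families of nearly the same counts. The miR408 sum was lower in stem than the mean of the other 6 tissues (log2 fold change -1.30 ± 0.48, adjusted p = 0.0288 over the families, 35.2% of families called). It was higher in shoots than in stem (1.60 ± 0.58, adjusted p = 0.0298, 37.0% called) and lower in mature leaves than in flower buds (-1.37 ± 0.57, adjusted p = 0.0480, 53.7% called). The miR397 sum in flowers passed over young pods (adjusted p = 0.0348, 25.9% called), where its mean level of 16.5 CPM did not exceed the mean limit of 17.4 CPM. In the order given, these 4 held with 15, 13, 9 and 14 of the 20 libraries left out in turn.

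miR398, which targets copper/zinc superoxide dismutases, and miR2119, which in legumes targets alcohol dehydrogenase and can share a precursor with miR398, were taken as the other copper-related families, along with miR857, miR528 and miR1444. The table held 4 features of miR398 and 1 of miR2119, all of which passed the filter, and 0 features of the other 3 families. Of these 5 features, 5 were called higher in mature leaves against the other 6 tissues (21.1% of all features called higher). By their names the miR398 features are length forms of the 3p strand and a 5p strand, so the 5 are not independent of one another. In roots 4 were lower (19.8% of all features), and in shoots 2 (2.79% of all features). For the feature not called in roots and the 3 not called in shoots, another tissue is listed at 0 throughout and the fit gave no usable standard error, so these counts do not describe their levels. The miR2119 feature, one of the 3, was called lower in shoots than in each of the 5 tissues other than roots (adjusted p from 0.00143 to 0.0133).

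In flower buds 3 of the 5 were called higher (17.6% of all features called higher), in young pods 3 (16.1%), in flowers 2 (13.0%) and in stem 1 (22.6%). These calls are against a mean of logs, which the low values in roots and shoots pull down. In plain means the stem call (miR2119) and 1 of the flower bud calls were not higher: the flower bud level of ath-miR398a-3p_L+1R-1 was 27588 CPM, against 30577 CPM as the mean of the other 6 tissues. The median log2 fold change of the 5 was 3.77 in mature leaves, against -0.41 for all features, and -6.24 in roots, against -0.08. With tissues listed at 0 throughout set to 5 reads per library, as a difference of log2 mean CPM, the medians of the 5 were 2.92 in mature leaves and -3.36 in roots. In young pods, where miR408-3p was lower, the median of the 5 was 2.49, or 1.81 with such tissues at 5 reads, against -0.11 for all features.

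The most abundant miR398 feature, mtr-miR398a-5p_L-1R+1_1ss8CA, was at 399, 826 and 527 CPM in roots and at 232388, 34352 and 38872 CPM in mature leaves, the first of which is mature leaves 1. In young pods it was at 69080, 132557 and 2163 CPM. All 3 root libraries lay below every other library. Against the other 6 tissues its log2 fold change was -5.52 ± 1.04 in roots (adjusted p = 0.000214), 3.17 ± 0.57 in mature leaves (adjusted p = 0.000209) and 2.49 ± 0.58 in young pods (adjusted p = 0.00368).

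The miR2119 feature, mtr-miR2119_1ss13GC, was listed at 0 in all 3 root libraries and in shoots 1 and 2, and at 23.5 CPM in shoots 3. It was at 3245, 632 and 537 CPM in mature leaves and at 1290, 3018 and 47.5 CPM in young pods. It was called higher in mature leaves (adjusted p = 0.000560) and young pods (adjusted p = 0.000988), and lower in roots (adjusted p = 0.000759). Stem passed the test on the log scale (adjusted p = 0.0341), but its mean of 609 CPM lay below the plain mean of the other 6 tissues, 649 CPM.

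**Figure D5:**
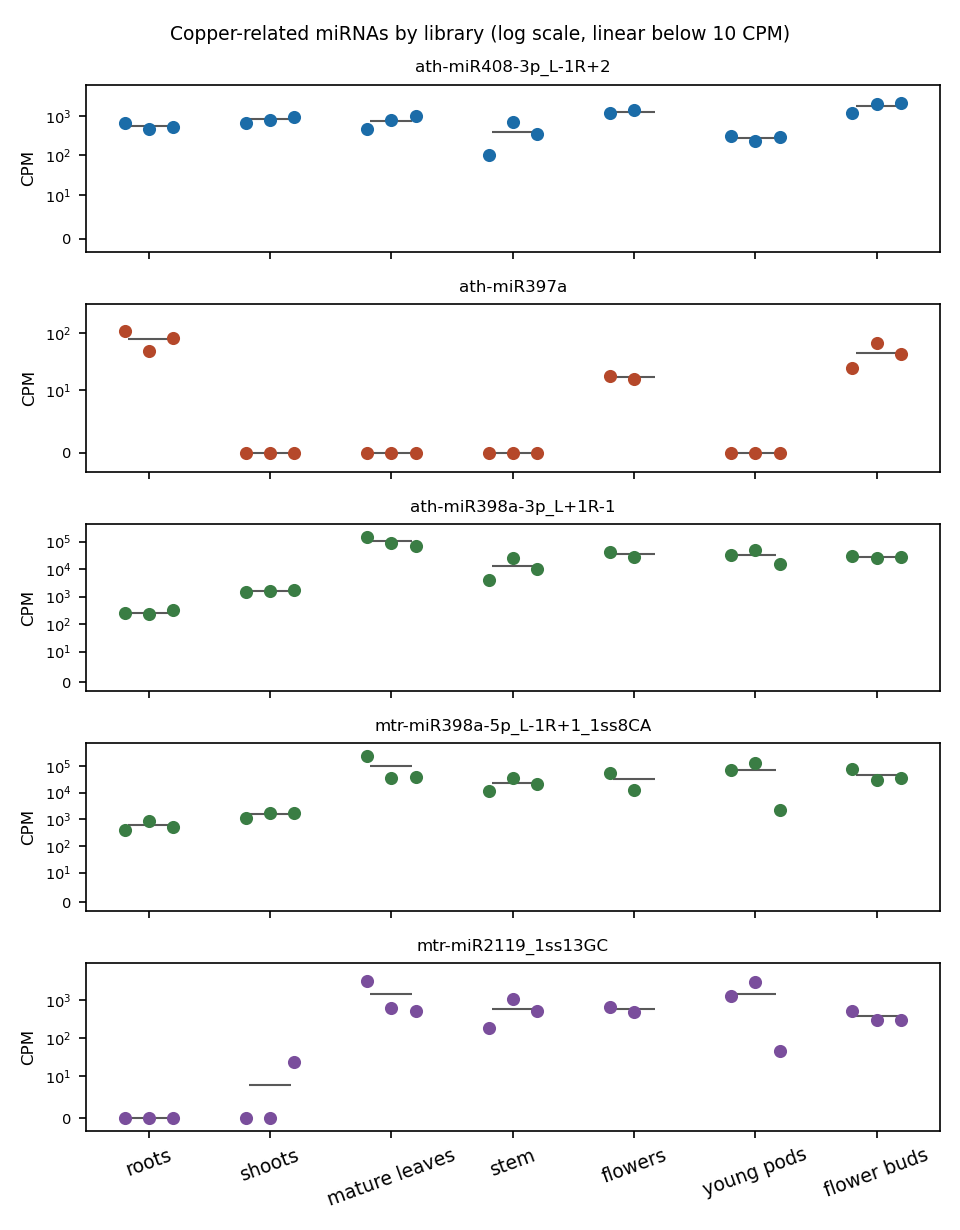
Levels in CPM by library (points) and tissue mean (bars) for miR408-3p, miR397 and the main features of miR398 and miR2119, each on its own axis that is logarithmic above 10 CPM and linear below. Roots and shoots hold the lowest values of miR398 and miR2119, whereas miR397 is highest in roots and miR408-3p lowest in young pods and stem 1.

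The main 3p feature of miR398, ath-miR398a-3p_L+1R-1, outside the naming rule, was set against miR408-3p as a ratio of reads within each library, with all entries of each sequence added up. The median was 0.25 miR398-3p reads per miR408-3p read in roots (0.184 to 0.312) and 0.983 in shoots (0.935 to 1.06). It was 54.1 in mature leaves (37.3 to 158.8), 52.4 in young pods (26.6 to 102.4) and 18.03 in stem (13.9 to 19.3). It was 14.1 in flowers (10.03 to 18.3) and 6.53 in flower buds (6.29 to 12.9). Roots and shoots overlapped with no other tissue and not with each other.

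Over the 20 libraries, on log2(CPM + 1), the Pearson correlation of miR408-3p with the 4 miR398 features and miR2119 ran from -0.002 to 0.280. That of miR397 with them ran from -0.370 to 0.018. Libraries of a tissue share that tissue, and all values of a library share its depth and scaling, so these are descriptions.

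Among 316 features of other families or of no family, with repeated counts taken once, the pattern of miR408-3p was most like that of lcum-miR-80153_98-5p (r = 0.699), mtr-MIR319b-p5_1ss13GA (r = 0.675) and mtr-miR166a (r = 0.639). The first, of 21 nt and of no known family, was at a mean of 66.8 CPM in flower buds and 14.1 CPM in flowers and at 0 elsewhere. The second was at 70.4 CPM in flowers, 56.0 CPM in flower buds and 7.49 CPM in stem, and at 0 elsewhere. The third, of a family that targets HD-ZIP III transcription factors, was lowest in stem (117585 CPM) and highest in flower buds (519568 CPM).

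miR397 was most like lja-MIR7539-p5_1ss8TA (r = 0.853), gma-miR4415a-3p_1ss18AT (r = 0.842) and lja-MIR7539-p3_1ss9TA (r = 0.804). The first reached 759 CPM in root libraries on average, with means of 311 CPM (flower buds) and 232 CPM (flowers), against 25.3 to 102 CPM in the other 4 tissues. The second had means of 822 CPM (roots), 25.8 CPM (flower buds) and 6.04 CPM (flowers). The third had means of 96.4 CPM (roots), 47.6 CPM (flower buds) and 43.2 CPM (flowers). For all 3 the means of roots, flower buds and flowers stood in the same order as those of miR397. The 3 were chosen by correlation over these same libraries, so the shared order is no separate result.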

How the data were processed

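The deposited table gives expected counts, which are read counts that the authors shared among entries where a sequence stood more than once: 25.8% of the values above 0 were not whole, to a tolerance of 0.01. The normalized columns, per the file headers, hold a signal: the authors scaled each library's raw values by a single factor (0.203 to 3.82), which served as an alternative scaling. For read trimming, aligner, caller and genome build, nothing is given in the sources used here. Per the labels' protocols, RNA of pooled samples was extracted (TRI Reagent, Spectrum kit) and converted to libraries by the TruSeq Small RNA protocol. A further 7 table lines are left unreported.

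Among 1146 unshared entries, 5 reads was the most frequent value above 0 (786 of 3892 values), and 13 values lay under it. Entries with 1 mature sequence were collapsed to the one with the highest total, values ending in 0.5 were rounded up, and features were filtered with filterByExpr by tissue, which kept 323 of 1464. None of the members repeats the counts of another feature. CPM was computed from the expected counts deposited by the authors and the TMM-adjusted library size. Tests were edgeR 4.0.16 quasi-likelihood F-tests (limma 3.58.1, R 4.3.3) with tissue as the only term, checked on simulated data. For flowers against the other 6, 42.4% of features simulated with a log2 change of 2 were called (39 of 92). At a log2 change of 1 it was 12.4% (11 of 89), and with no change 0.901% (1 of 111). A comparison that was not called may therefore still hold a difference. Among the 292 simulated features tested, those with a change outnumbered those without. The rates belong to that setting and need not carry over to the data. Family sums left out repeats within a family. Precursors were folded with RNAfold 2.7.2. Intervals are 95% Clopper-Pearson.

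Every member is named, with the most abundant feature of each other copper-related family and, for each family, the 3 features with the most similar pattern. The members and lists were chosen with earlier results of these data known. Other scalings, filters, DESeq2 1.42.0, summed entries, a replicate term and left-out libraries were tried as alternatives. Of these, rounding such values to the even number and TMM before the filter were added after seeing the data. A test of the 3p to 5p balance was not run, because 2 libraries listed both arms.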

Additional observations from a re-analysis of the deposited data

How the results depend on the processing

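Both tested members differed over the 7 tissues, and both families, under every setting and left-out library that was run. Calls against the other 6 tissues numbered 5, between 4 and 7 under 11 other settings and with 1 library left out. Calls between pairs numbered 16, against 9 with no filter on low counts, 10 with the replicate block, and 11 to 22 with 1 library left out. Calls of other copper families numbered 20, or 19 to 26 over all of these. Same-numbered libraries of 2 tissues correlated at a median of 0.028 (-0.243 to 0.283, 17 of 57 pairs over 0.1). For other numbers the median was -0.011 (-0.283 to 0.250, 27 of 114 pairs over 0.1). These correlations share libraries, so they cannot settle whether the numbers pair the libraries. Under the block miR397 lost its call in flowers (adjusted p = 0.120), and of flower buds over shoots (0.0812), mature leaves (0.0772) and young pods (0.0719) and of flowers over stem (0.105). Without the filter it lost the calls of roots over shoots (adjusted p = 0.0656) and mature leaves (0.0572), of flower buds over shoots (0.128), mature leaves (0.112) and young pods (0.0980), and of flowers over stem (0.118). The miR408-3p values that changed sign belonged to no call. With library size alone they were 0.22 in roots and -0.00958 in mature leaves against the other 6, 0.20 for roots over mature leaves and 0.11 for flowers over flower buds. With 10 reads in 2 libraries they were -0.0396 in shoots and -0.20 in mature leaves, with values ending in 0.5 rounded to the even number -0.44 in mature leaves, with entries summed -0.00563 for shoots over mature leaves, and with the authors' factors -0.15 for roots over stem and -0.23 for shoots over mature leaves. With the authors' factors miR397 in roots over flower buds was -0.27, and miR408-3p was called lower in roots (-1.20, adjusted p = 0.0273). With 1 library left out the ranges that crossed 0 were -0.0665 to 0.30 in shoots and -0.48 to 0.0866 in mature leaves against the other 6, -0.43 to 0.0939 for roots over mature leaves, -0.0585 to 0.55 for shoots over mature leaves and -0.13 to 0.96 for stem over young pods. The median of all features in roots moved by 0.63 with library size alone and by -0.85 with the authors' factors. The cause of these shifts was not tested. A balance of miR408 arms over tissues was not run, since 18 of 20 libraries held the 5p strand at under 5 reads.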
